A study of Mus musculus with 20 samples.

Results

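Prim2, Rrp7a and Ywhaz are 3 mouse genes for which different probes on the same arrays gave different answers about a pair of inbred strains. The brightest probe of each gene differed between C57BL/6J and 129S1/SvImJ gonads, and the other probes of the same gene showed no comparable difference. They have 7 probes in all, 2 for Prim2, 2 for Rrp7a and 3 for Ywhaz, of 41174 gene probes on the array. Their names are 3 of the 27670 distinct names that these probes carry. The genes were chosen for this disagreement, so their strain differences describe the choice and carry no test. What the choice did not use is how the same probes behaved in the hybrids.

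Each array held RNA from 1 pair of XY gonads, dissected free of the mesonephros at embryonic day 11.5 from embryos with 17 to 21 tail somites, when the gonad of the mouse starts on the testis or the ovary path. There were 4 groups of 5 gonad pairs, none of them treated, each from several litters: first generation hybrids of both cross directions, written (B6x129S1)F1 and (129S1xB6)F1, and their parent strains C57BL/6J and 129S1/SvImJ. Gonad RNA was labelled with Cy5 on all 20 arrays, with no dye swap. The Cy3 channel always carried a pool of XY and XX gonads and whole embryos from a cross of Sox9-ECFP mice on C57BL/6J with CD-1. Values are log2 ratios of Cy5 over Cy3 unless stated otherwise, and differences carry the standard error (SE) of a limma fit over all 20 arrays. A gonad is a mixture of cells, and fewer cells of a type cannot be told apart from less RNA per cell.

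Prim2 encodes the large, regulatory subunit of DNA primase, which with the catalytic subunit Prim1 lays down the short RNA primers that DNA polymerase alpha extends on both strands of a replication fork. Rrp7a is the mammalian counterpart of yeast Rrp7, a factor that in yeast acts with the counterparts of Nol6 and Rrp36 on the precursor of the small ribosomal subunit in the nucleolus. Ywhaz is 14-3-3 zeta, one of a family of abundant adaptor proteins that bind other proteins at phosphorylated serine or threonine. All 3 genes serve functions that most cells share.

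A probe on this array is a DNA oligonucleotide of 60 bases, spotted 1 time, and a gene's value is what its probe reports about its own short stretch of the transcript. The sequences below are shown because the whole disagreement lies between such stretches of a single gene. They are given as the files list them, 5′ to 3′ in lower case, as bases 1 to 30 of the 60, except the second Ywhaz probe, which is given whole.
Prim2 brightest, A_51_P338998 (transcript NM_008922, chromosome 1): ggaaaggaagcattcctattgaaactgtta
Prim2 second, A_52_P1115939 (AK047274, chromosome 1): tcacgaaatgatttgatagttttcctctct
Rrp7a brightest, A_51_P361906 (NM_029101, chromosome 15): gaggctgtcacggaaatgtaggtatctgag
Rrp7a second, A_51_P150014 (NM_029101, chromosome 15): agaccacctctcgctttgtcttatccctcc
Ywhaz brightest, A_51_P480709 (NM_011740, chromosome 15): cagcttttcatgtaaattagtcttttggtt
Ywhaz second, A_52_P225260 (NM_011740, chromosome 15): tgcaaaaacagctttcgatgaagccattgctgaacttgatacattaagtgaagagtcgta
Ywhaz, the third, A_52_P644465 (AK050511, chromosome 15): tttcttctgaagattggagtgcatttctaa

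Both Rrp7a probes are assigned to the same transcript accession, as are the first and the second Ywhaz probe, so in these genes the disagreement lies within probes listed for a single transcript. The second Prim2 probe and the third Ywhaz probe are assigned to cDNA clones instead. Over their full length the 7 probes shared at most 16 consecutive bases with any other probe of the array, members of the same gene included. Their GC content ran from 25% for the second Prim2 probe to 51.7% for the second Rrp7a probe, against a median of 40% over all probes. Where each probe lies in the genome was not analysed here, since no genome of the build used for the design was at hand.

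Between 77.9% and 88% of gene probes were well above background per array. Of 8 genes of the bipotential and supporting gonad, 7 were well above background on all arrays and all had a mean ratio above 0, the exception being Sry with 13 arrays. Across the 6 sets of cell type markers, limma with Benjamini-Hochberg adjustment called 3 genes between the strains. Of all genes, 5.28% were called by their brightest probe. By limma, 1 of 8 gonad genes was called, Emx2 (higher in C57BL/6J by 0.99, adjusted p = 0.016). So were 1 of 5 germ cell genes, Dazl (-0.90, adjusted p = 0.042), and 1 of 3 mesonephric genes, Lhx1 (-0.53, adjusted p = 0.0091). The uncalled gonad genes ran from -0.25 to 0.93. The uncalled germ cell genes stood at -0.91 (Pou5f1), -0.46 (Dppa3), 0.14 (Ddx4) and -0.15 (Kit), and the mesonephric Pax2 and Pax8 at 0.01 and 0.32. The part of cell makeup in the differences below was not tested. On 1 array of 129S1/SvImJ (A4) and 1 of C57BL/6J (H3), 8 and 3 spots with a local background above their signal spoilt the background model, and such spots were left out on every array.

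The brightest Prim2 probe had log2 ratios of -0.69, -0.69, -0.88, -1.16 and -0.95 in (B6x129S1)F1 gonads and -0.99, -1.12, -0.84, -0.94 and -0.83 in (129S1xB6)F1 gonads. In C57BL/6J gonads it had -0.17, -0.17, -0.21, -0.18 and 0.17, against -3.40, -3.26, -3.22, -3.71 and -3.54 in 129S1/SvImJ gonads. The strains did not overlap, and all 10 hybrid arrays lay between them, much nearer to C57BL/6J on this log2 scale. On the linear scale, given below, they lay near the middle. The difference between the strains was 3.31 ± 0.11 (SE), or 9.93-fold higher in C57BL/6J.

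The second Prim2 probe did not follow. It ran from -0.09 to 0.34 in (B6x129S1)F1, from -0.04 to 0.22 in (129S1xB6)F1, from 0.11 to 0.19 in C57BL/6J and from 0.15 to 0.39 in 129S1/SvImJ, and the groups overlapped throughout. Its strain difference was -0.13 ± 0.07. This probe is dim: its net Cy5 signal was 23.6 to 71.2 scanner units over the 20 arrays and it was well above background on 15 of them, so the constant of 50 added to every signal draws its ratio towards 0. In the processed signals of the scanner software, which carry no such constant, its mean was 0.63 ± 0.28 in C57BL/6J and 0.97 ± 0.41 in 129S1/SvImJ (SD, n = 5 each), a difference of -0.34, opposite in sign to that of the brightest probe.

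The brightest Rrp7a probe had log2 ratios of -0.89, -0.66, -0.77, -0.23 and -0.72 in (B6x129S1)F1 and -0.32, -0.48, -0.73, -0.52 and -0.67 in (129S1xB6)F1. C57BL/6J gonads had 0.40, 0.46, 0.07, 0.15 and 0.06, against -2.47, -2.28, -2.23, -2.62 and -2.38 in 129S1/SvImJ gonads. As for Prim2, the strains stood apart with every hybrid array between them. The strain difference was 2.62 ± 0.12, or 6.15-fold higher in C57BL/6J.

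The second Rrp7a probe is the clearest counterpart, since it was well above background on all 20 arrays and brighter than 68.8% of the probes. Its signal was less steady than that of the brightest probe, though. The same reference pool gave 304 to 894 net Cy3 units at its spots, against 2100 to 3370 at those of the brightest probe. The reason for this spread was not tested. It had 0.24, 0.19, 0.29, 0.15 and 0.36 in (B6x129S1)F1, 0.05, 0.15, 0.16, 0.16 and 0.20 in (129S1xB6)F1, 0.20, 0.13, 0.22, 0.19 and -0.01 in C57BL/6J, and 0.17, 0.08, 0.30, 0.11 and -0.13 in 129S1/SvImJ. All 4 groups overlapped, and the strain difference of 0.04 ± 0.07 had a 95% interval of -0.10 to 0.19. On the same transcript accession, and on the same arrays, the probes of Rrp7a therefore gave a 6.15-fold difference and a difference whose interval reached no further than 0.19 in log2.

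Ywhaz ran the other way. Its brightest probe had 1.75, 1.44, 1.56, 1.63 and 1.16 in (B6x129S1)F1 and 1.39, 1.20, 1.29, 1.60 and 1.34 in (129S1xB6)F1. C57BL/6J gonads had 0.20, 0.18, 0.52, 0.41 and -0.65, against 2.58, 1.58, 2.12, 2.12 and 1.86 in 129S1/SvImJ gonads. The strains did not overlap, while the hybrid arrays lay above every C57BL/6J array and reached into the lower part of the 129S1/SvImJ range. The strain difference was -1.92 ± 0.19, or 3.79-fold lower in C57BL/6J.

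The second Ywhaz probe was bright, above 86.5% of the probes, and well above background on all arrays. It had 0.01, -0.08, -0.24, -0.24 and -0.35 in (B6x129S1)F1, -0.24, -0.12, 0.13, -0.11 and 0.00 in (129S1xB6)F1, -0.28, -0.09, 0.02, -0.61 and 0.70 in C57BL/6J, and 0.02, 0.00, -0.09, 0.10 and 0.72 in 129S1/SvImJ. The groups overlapped, but 1 array of each strain stood out, K2 of C57BL/6J and G3 of 129S1/SvImJ. With the spread this leaves, the strain difference of -0.20 ± 0.18 had a 95% interval of -0.59 to 0.18, so a modest difference in the direction of the brightest probe could not be seen. K2 was also the lowest of all 20 arrays on the brightest Ywhaz probe, so on that gonad pair the probes went in opposite directions.

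The third Ywhaz probe was near background, with net Cy5 signals of 21.4 to 64.8 scanner units and 10 of 20 arrays well above background. Its ratios ran from -0.14 to 0.21 over all arrays and its strain difference was 0.08 ± 0.06. At this brightness the added constant of 50 sets much of the ratio and holds it near 0.

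**Figure D1:**
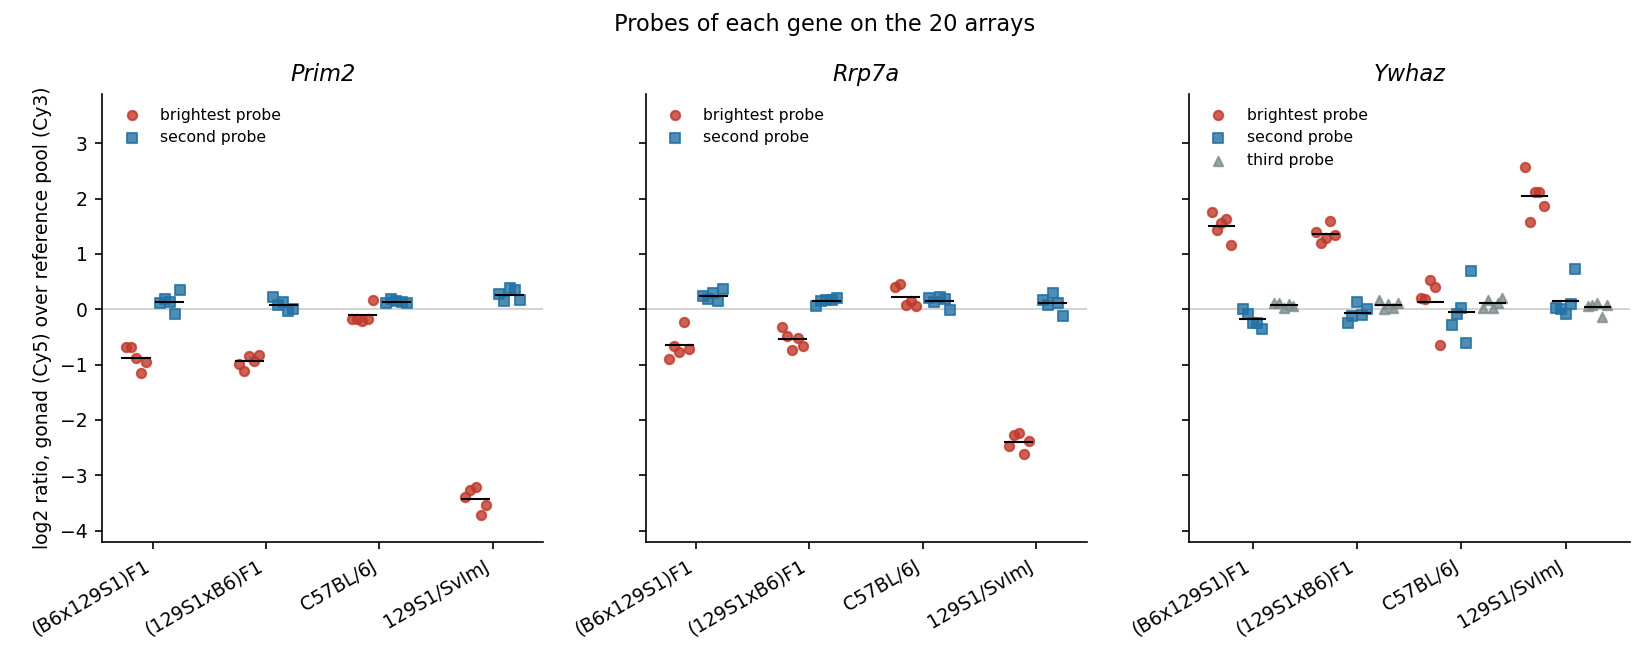
Log2 ratio of gonad over reference pool (y axis) for each probe of Prim2, Rrp7a and Ywhaz on the 5 arrays of each group (x axis). Points are arrays and black lines group means. The brightest probes separate the strains, at -0.11 against -3.43 for Prim2, while the other probes lie near 0 in every group.

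All 3 brightest probes had strain ranges that did not overlap and the 4 other probes had ranges that did. Of the 35040 probes tested on the array, 5.13% had no overlap between the strains, 2.95% being higher and 2.17% lower in C57BL/6J. By limma with Benjamini-Hochberg adjustment 5.3% of the probes were called, 3.02% higher and 2.28% lower in C57BL/6J. Since the genes were picked on this contrast, the counts are given as description and nothing is read from them.

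The strain difference lay in the gonad channel. When the channels were separated and made comparable between arrays (Aquantile normalisation), the log2 Cy5 signal of the brightest probes differed by 3.31, 2.64 and -1.92 for Prim2, Rrp7a and Ywhaz, and the Cy3 signal of the reference pool by 0.00, 0.02 and 0.00. For Prim2 the net Cy5 signal was 462 to 863 scanner units in (B6x129S1)F1, 438 to 947 in (129S1xB6)F1, 889 to 1490 in C57BL/6J and only 109 to 134 in 129S1/SvImJ. The pool gave 1500 to 2350 units at the same spots on every array. The probe was still well above background on all 5 arrays of 129S1/SvImJ, so a signal was left there, but it was close enough to background for its size to depend on the correction, as the next values show.

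**Figure D2:**
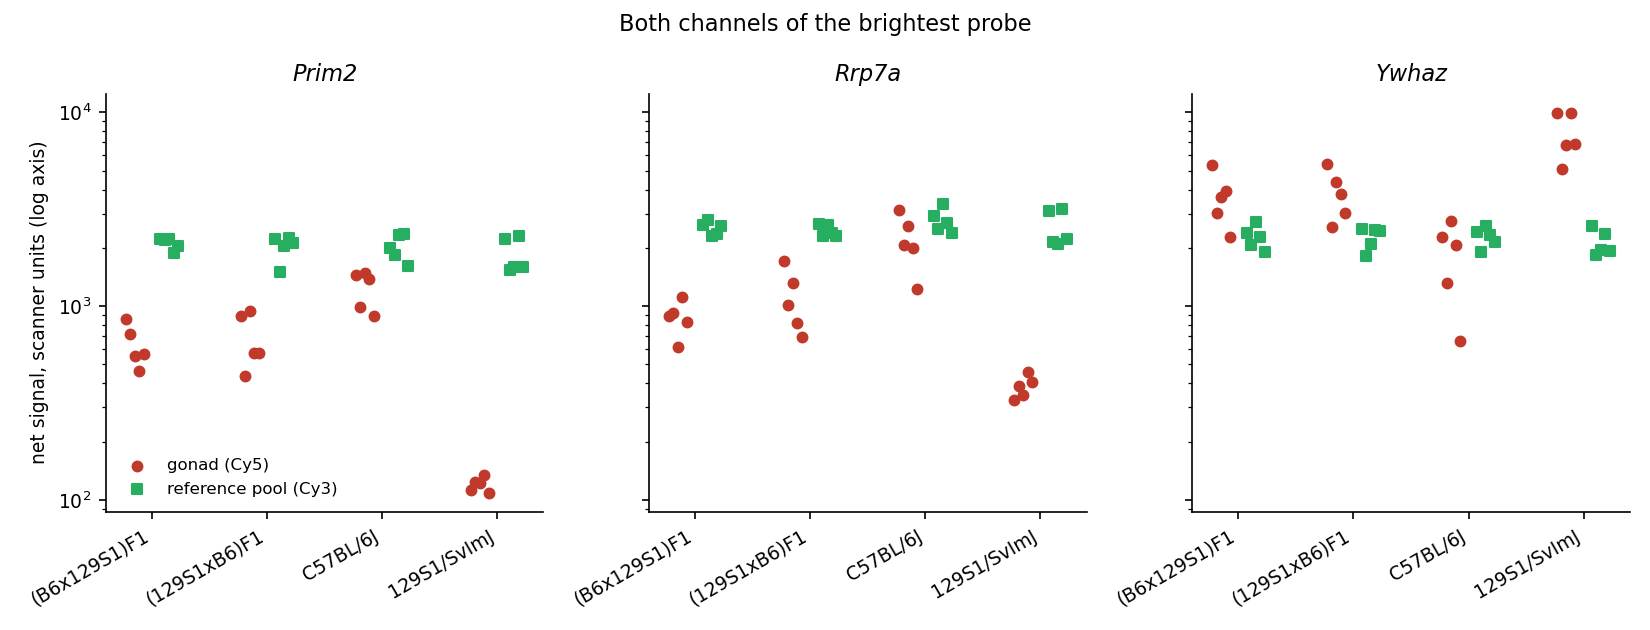
Net signal in scanner units (y axis, log scale) of the brightest probe of each gene in the gonad channel (Cy5, circles) and the reference channel (Cy3, squares) on the 5 arrays of each group (x axis). The Cy3 squares stay level across groups, and the Cy5 circles of Prim2 drop to 109 to 134 in 129S1/SvImJ.

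The Prim2 difference moved with the treatment of the background. It was 1.98 without background subtraction, 3.31 as reported, 3.93 in the processed signals and 4.00 in the deposited value table. Rrp7a, whose 129S1/SvImJ arrays had 328 to 456 units of net Cy5 signal, moved between 1.97 and 2.81 over the same settings. Ywhaz, which was bright in every group, moved only between -1.97 and -1.78. In each setting the direction was the same.

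The slides carried both strains on 4 of 5 slides, which allowed the difference to be read within a slide. For Prim2 it was 3.36, 3.08, 3.39 and 3.36 on slides 1 to 4, and for Rrp7a 2.78, 2.74, 2.29 and 2.53. For Ywhaz it was -1.99, -1.40, -2.77 and -1.45, where the -2.77 comes from the slide with K2. Within slides the second Prim2 probe differed by -0.28 to 0.03 and the second Rrp7a probe by -0.31 to 0.32. The second Ywhaz probe differed by -0.19, -0.10, 0.78 and -1.32, so on slide 4, with G3 and 1 C57BL/6J array, it went nearly as far as the brightest probe and in the same direction, and on slide 3, with K2, in the opposite one. Leaving K2 out gave -1.73 for the brightest Ywhaz probe and -0.39 for the second, and leaving G3 out gave -0.06 for the second.

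In the hybrids the brightest probes were tested against the mean of the strains (mid-parent). The hybrid arrays were not used to choose the genes, but the strain values in the mid-parent were. On the log2 scale Prim2 was 0.86 ± 0.08 above the mid-parent (95% interval 0.70 to 1.02, adjusted p = 1.4e-05, limma with Benjamini-Hochberg adjustment over all probes). Rrp7a was 0.48 ± 0.08 above it (adjusted p = 0.013), and Ywhaz lay 0.34 ± 0.14 above it without passing the test (adjusted p = 0.49). Thus 2 of the 7 probes were called higher in the hybrids, against 0.194% of all probes tested, and 0.197% called in either direction. The log2 mid-parent lies lower the farther apart the strains are, and the genes were chosen for a strain difference. Nothing is therefore read from this count. None of the other probes of the 3 genes was called, with differences from -0.17 to 0.07 and adjusted p of 0.60 or more.

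The Prim2 call held in 7 of the 8 other settings that keep all arrays and without any single array, but with the background model fitted on all spots its adjusted p was 0.066. The Rrp7a call did not survive slide as a block (0.40, adjusted p = 0.41), no background subtraction (0.29, adjusted p = 0.24) or the model on all spots (0.44, adjusted p = 0.11).

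The excess was not seen on the linear scale. By construction the mean of log2 values lies below the log2 of the mean, the more so the farther apart the strains are. On linear ratios Prim2 averaged 0.549 ± 0.073 in (B6x129S1)F1, 0.521 ± 0.042 in (129S1xB6)F1, 0.929 ± 0.108 in C57BL/6J and 0.0938 ± 0.0128 in 129S1/SvImJ (SD, n = 5 each). The hybrid mean of 0.535 was then next to the linear mid-parent of 0.511, and their log2 ratio was 0.07 ± 0.09 (SE). For Rrp7a the hybrid mean was 0.666 against a linear mid-parent of 0.685 (log2 ratio -0.04 ± 0.10), and for Ywhaz 2.73 against 2.70 (0.02 ± 0.15). In all 3 genes the hybrids were thus within the error of the arithmetic mean of the strains.

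Other strain-dependent probes give a rough scale of this, without matching for the size of the strain difference. For this, 359 probes of other genes were taken that were called and at least 2-fold different between the strains. Their median hybrid excess was 0.11 over the log2 mid-parent and -0.08 over the linear one. The interquartile ranges were -0.05 to 0.28 and -0.22 to 0.06. The log2 values of Prim2, Rrp7a and Ywhaz, from 0.34 to 0.86, lay above the first range. The 359 probes only had to be 2-fold different, while these genes were chosen for a strain difference. The log2 mid-parent lies lower the farther apart the strains are, so nothing is read from this position. The linear values of Prim2, Rrp7a and Ywhaz, from -0.04 to 0.07, lay within or just above the second range.

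**Figure D3:**
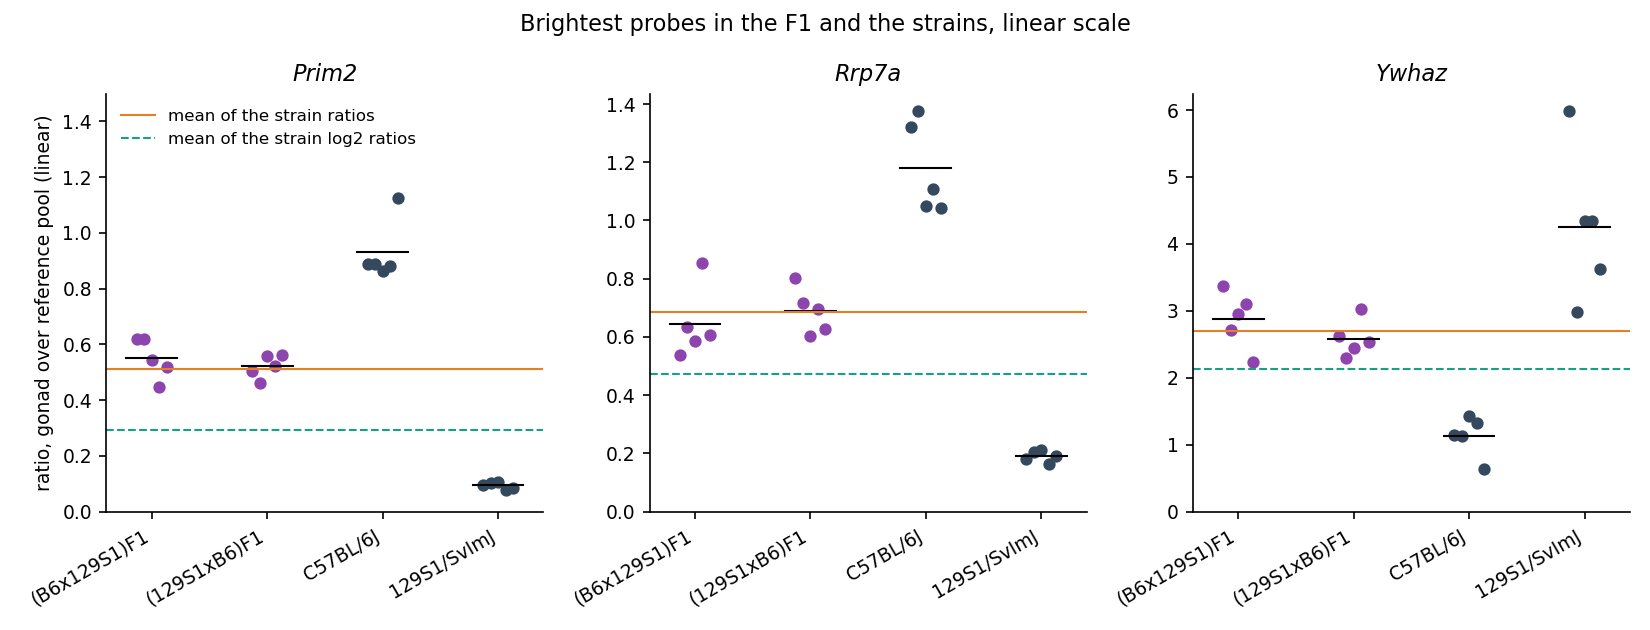
Linear ratio of gonad over reference pool (y axis) for the brightest probe of each gene on the 5 arrays of each group (x axis), with group means in black. The solid line is the mean of the strain ratios and the dashed line the mean of their log2 ratios. Both hybrid groups sit around the solid line, at a mean of 0.535 against 0.511 for Prim2.

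The reciprocal crosses asked whether the direction of the cross mattered. By limma, none of the 7 probes was called between (B6x129S1)F1 and (129S1xB6)F1, and 0 had an unadjusted p under 0.05, against 2.49% of all probes. The differences of the brightest probes were 0.07 ± 0.11 for Prim2, -0.11 ± 0.12 for Rrp7a and 0.15 ± 0.19 for Ywhaz (adjusted p = 1 for each), with 95% intervals of -0.15 to 0.29, -0.36 to 0.14 and -0.26 to 0.55. Of all probes 0.00571% were called, which is 2 probes, 1 for Lancl3 (-2.00, adjusted p = 3.1e-04) and 1 for BC022654 (0.51, adjusted p = 0.018), named here after their values were seen. The BC022654 call was kept in 12 of 20 fits without 1 array, and neither was called with the background model fitted on all spots.

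The disagreement itself can be measured on each array as the gap between the brightest probe and the mean of the gene's other probes. This cancels what a whole array shares only where those other probes are not dim. The other Prim2 probe is dim, and the added constant draws its ratio towards 0. The Prim2 gap therefore mostly restates the brightest probe, whose mean ratio was -0.11 in C57BL/6J and -3.43 in 129S1/SvImJ. For Ywhaz the mean includes the dim probe A_52_P644465, which is held near 0 in the same way. Only the Rrp7a gap is free of dim probes. For Prim2 the gap averaged -1.01 ± 0.19 in (B6x129S1)F1, -1.02 ± 0.17 in (129S1xB6)F1, -0.25 ± 0.17 in C57BL/6J and -3.69 ± 0.23 in 129S1/SvImJ (SD, n = 5 each). For Rrp7a it was -0.90 ± 0.31 in (B6x129S1)F1, -0.69 ± 0.21 in (129S1xB6)F1, 0.08 ± 0.19 in C57BL/6J and -2.50 ± 0.20 in 129S1/SvImJ. For Ywhaz it was 1.56 ± 0.18 in (B6x129S1)F1, 1.35 ± 0.18 in (129S1xB6)F1, 0.10 ± 0.70 in C57BL/6J and 1.96 ± 0.45 in 129S1/SvImJ. The gap was smallest in C57BL/6J for each gene, where single arrays ran from -0.36 to 0.66 over the 3 genes apart from K2, at -1.10 for Ywhaz. Each ratio is relative to a reference pool from a cross that included C57BL/6J. The genes were also chosen on the strain values in the gap, so nothing is read from this order. Between the reciprocal crosses the gap differed by 0.01, -0.21 and 0.20, and 2-sided exact permutation tests over 252 splits gave p = 0.921, 0.286 and 0.0873 (0.921, 0.429 and 0.262 after Benjamini-Hochberg adjustment over the 3 genes, with 0.00794 the smallest p this design allows).

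How common is such a pattern on this array? Of 7731 genes with at least 2 probes tested, 92 had a brightest probe that was called and at least 2-fold different between the strains. In 48 of these another probe of the gene was called too, and in 44 (0.569% of the 7731 genes) none was. The 44 include the 3 genes described here and split into 27 higher and 17 lower in C57BL/6J. Prim2 and Rrp7a came next after Ptprg as the largest differences among them, and Ywhaz had the largest on the lower side. In 30 of the 44, among them all 3, each other probe differed by less than 0.25, a bound set after the values were seen. The second Prim2 probe lay outside this bound in the processed signals (-0.34) and in the deposited table (-0.31), and the second Ywhaz probe without K2 (-0.39). The other probes only had to pass the filter for testing, and the added constant holds dim ones near 0. How many of the 44 rest on dim probes was not counted. Without background subtraction the count of 44 was 19, and it was 63 in the processed signals and 66 in the deposited table. The mirror case, where the brightest probe was not called and another one was called at 2-fold or more, occurred in 53 genes.

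Among the other 41 genes the largest differences higher in C57BL/6J were those of Ptprg, a receptor tyrosine phosphatase (4.24 ± 0.12, other probe 0.70), Gcnt1, a glycosyltransferase (2.13 ± 0.23, nearest other probe -0.14), Usp53 (2.08 ± 0.08, other probe -0.18), Fut10, a fucosyltransferase (1.97 ± 0.11, other probe 0.14), and Zbtb8os (1.93 ± 0.06, other probe 0.14). On the lower side they were Zfp704 (-1.77 ± 0.22, other probe 0.00), the histone gene H2aw (-1.72 ± 0.23, nearest other probe -0.64), Sfrp1, a secreted WNT inhibitor (-1.59 ± 0.27, other probe 0.21), Npsr1 (-1.49 ± 0.24, nearest other probe -0.03), and Med1, a subunit of the Mediator complex (-1.42 ± 0.18, nearest other probe -0.03). Set beside these, Prim2 combined a difference second only to Ptprg with another probe at -0.13. That other probe is dim, though, and the added constant draws its ratio towards 0. The sizes depended on the treatment of the background: over the settings that keep all arrays they ran from 2.68 to 5.05 for Ptprg, 0.86 to 3.44 for Gcnt1, 1.04 to 2.68 for Usp53, 1.16 to 2.29 for Fut10, 0.97 to 2.48 for Zbtb8os and -1.83 to -0.81 for Npsr1. In the processed signals Gcnt1, at 3.44, was ahead of Rrp7a, at 2.74. The direction and the call of these genes held in each setting.

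**Figure D4:**
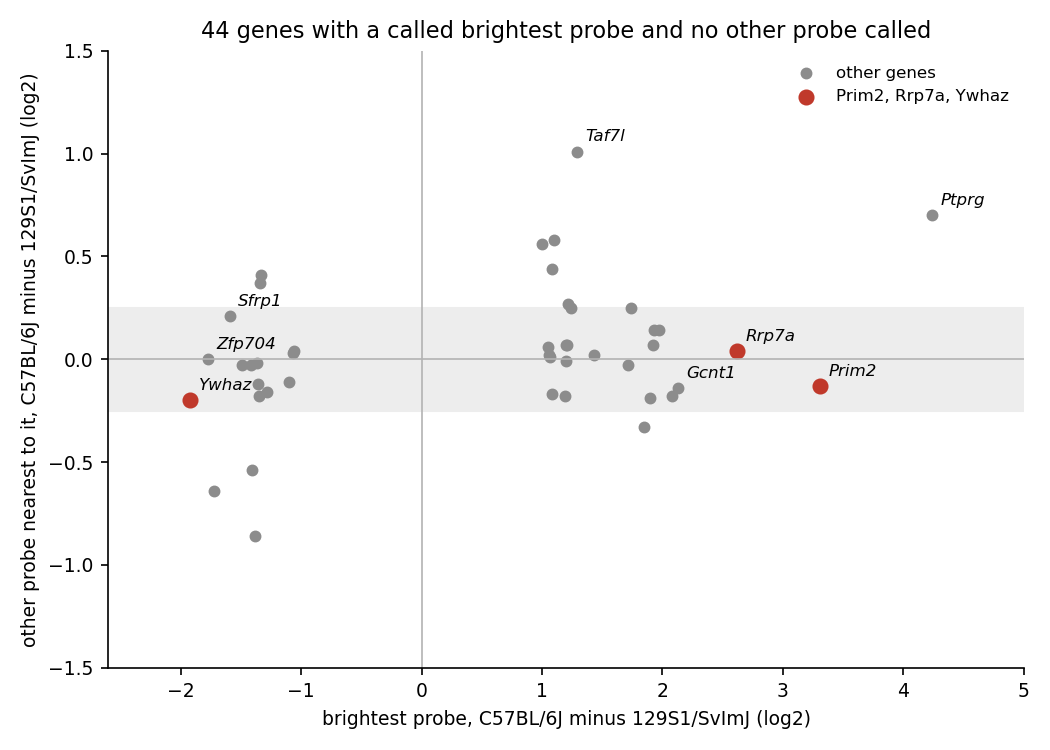
Strain difference of the brightest probe (x axis, log2, C57BL/6J minus 129S1/SvImJ) against that of the nearest other probe of the same gene (y axis) for the 44 genes with a called brightest probe and no other probe called. The grey band marks 0.25 to either side of 0, and Prim2, Rrp7a and Ywhaz (large points) lie inside it at 3.31, 2.62 and -1.92 with the processing used here.

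By their brightest probes, the partners of the 3 proteins did not show differences of this size. Other probes of a partner did so in Pold3, a subunit of DNA polymerase delta, described further on. Of 31 genes of the primase and the replication fork, all tested by their brightest probe, 1 was called higher and 1 lower in C57BL/6J, with a median difference of -0.03, against 5.28% called in either direction, 3.1% higher and 2.18% lower, and a median of 0.01 over 23851 genes. The catalytic primase subunit Prim1 differed by -0.06 ± 0.09, and the polymerase alpha subunits Pola1 and Pola2 by -0.01 ± 0.25 and 0.01 ± 0.17, none of them called. The called genes were both subunits of the GINS complex, part of the replicative helicase: Gins1 rose by 0.59 ± 0.09 (adjusted p = 1.7e-04) and Gins4 fell by 0.32 ± 0.07 (adjusted p = 0.011, but 0.056 in the processed signals). Rpa3 of the single-strand binding complex (0.22 ± 0.07, adjusted p = 0.054) and the clamp loader subunit Rfc3 (-0.34 ± 0.10, adjusted p = 0.065) were next and did not pass.

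Of 40 genes of the small subunit processome, the particle in which the ribosomal precursor is cut, 1 was called higher and 1 lower, with a median of -0.03. Imp4, a protein of the U3 complex, was 0.73 ± 0.08 higher in C57BL/6J (adjusted p = 6.5e-06), called in each setting but with a size that ran from 0.21 without background subtraction to 1.55 in the deposited table. Utp14a stood at -0.57 ± 0.16 with an adjusted p of 0.041, which stayed under 0.05 in only 9 of the 20 fits that each left out 1 array and in 4 of the 8 other settings that keep all arrays, over which its size ran from -0.81 to -0.22. Nol6 and Rrp36, the closest partners of Rrp7a in the yeast complex, differed by 0.17 ± 0.20 and 0.04 ± 0.13. Utp6 (0.26 ± 0.10, adjusted p = 0.19) and the kinase subunit Csnk2a2 (0.33 ± 0.14, adjusted p = 0.22) did not pass.

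The other 6 genes of the 14-3-3 family were all tested and none was called (limma, 0 at an unadjusted p under 0.05, lowest adjusted p = 0.55). Of all genes, 5.28% were called by their brightest probe, so with 6 genes little can be read from this. The differences of the 6 genes were -0.04 ± 0.17 for Ywhab, -0.01 ± 0.18 for Ywhae, 0.33 ± 0.22 for Ywhag, 0.04 ± 0.27 for Ywhah, 0.00 ± 0.19 for Ywhaq and 0.08 ± 0.20 for Sfn. The brightest Ywhaz probe, at -1.92, was chosen for its strain difference, so nothing is read from its distance to these genes.

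The genes next to each member on its chromosome were read in the same way, by their brightest probe, from the gene order of assembly GRCm38.p6. Of all genes, 5.28% were called between the strains by that probe. Of the 10 nearest genes with a tested probe around Prim2 on chromosome 1, only 1700001G17Rik was called, at -0.30 ± 0.08 (adjusted p = 0.026, kept in 14 of 20 fits without 1 array and in 5 of the 8 other settings). The others were 4931428L18Rik, Lgsn, Dnaaf6, Khdrbs2, Gm5415, Rab23, Bag2, Zfp451 and Bend6, with differences from -0.09 to 0.10. The other probe of Bend6, at -0.28, was called. Next to the 3.31 of the brightest Prim2 probe, these are small differences.

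Around Rrp7a on chromosome 15, Serhl, the gene before it, was higher in C57BL/6J (0.58 ± 0.13, adjusted p = 0.008). Cyb5r3, the cytochrome b5 reductase gene, and 1700001L05Rik were lower (-0.69 ± 0.15, adjusted p = 0.0073, and -0.33 ± 0.09, adjusted p = 0.026, the second kept in 16 of 20 fits without 1 array and in 5 of the 8 other settings). The other probe stood at -0.10 for Serhl, -0.54 for Cyb5r3 and -0.06 for 1700001L05Rik, and none of these was called. Cyp2d26, Tcf20, Tbrg3, Nfam1, Poldip3, Arfgap3 and Pacsin2 ran from -0.32 to 0.15 and were not called.

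Around Ywhaz, also on chromosome 15, the called genes went the same way as its brightest probe: Ankrd46 was lower in C57BL/6J, at -0.79 ± 0.18 (adjusted p = 0.011), and so was the ubiquitin ligase gene Rnf19a, at -0.54 ± 0.13 (adjusted p = 0.014). The other probes of Rnf19a stood at -0.68 and -0.17 and were not called. The gene between Ankrd46 and Ywhaz, Pabpc1 for the poly(A)-binding protein, stood at -0.64 ± 0.26 without passing (adjusted p = 0.22), and its other probe at 0.31. Spag1 stood the other way, at 0.44 ± 0.13, also without passing (limma, adjusted p = 0.066). Polr2k, Zfp706, Grhl2, Ncald and Odf1 ran from -0.07 to 0.16 and were not called.

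**Figure D5:**
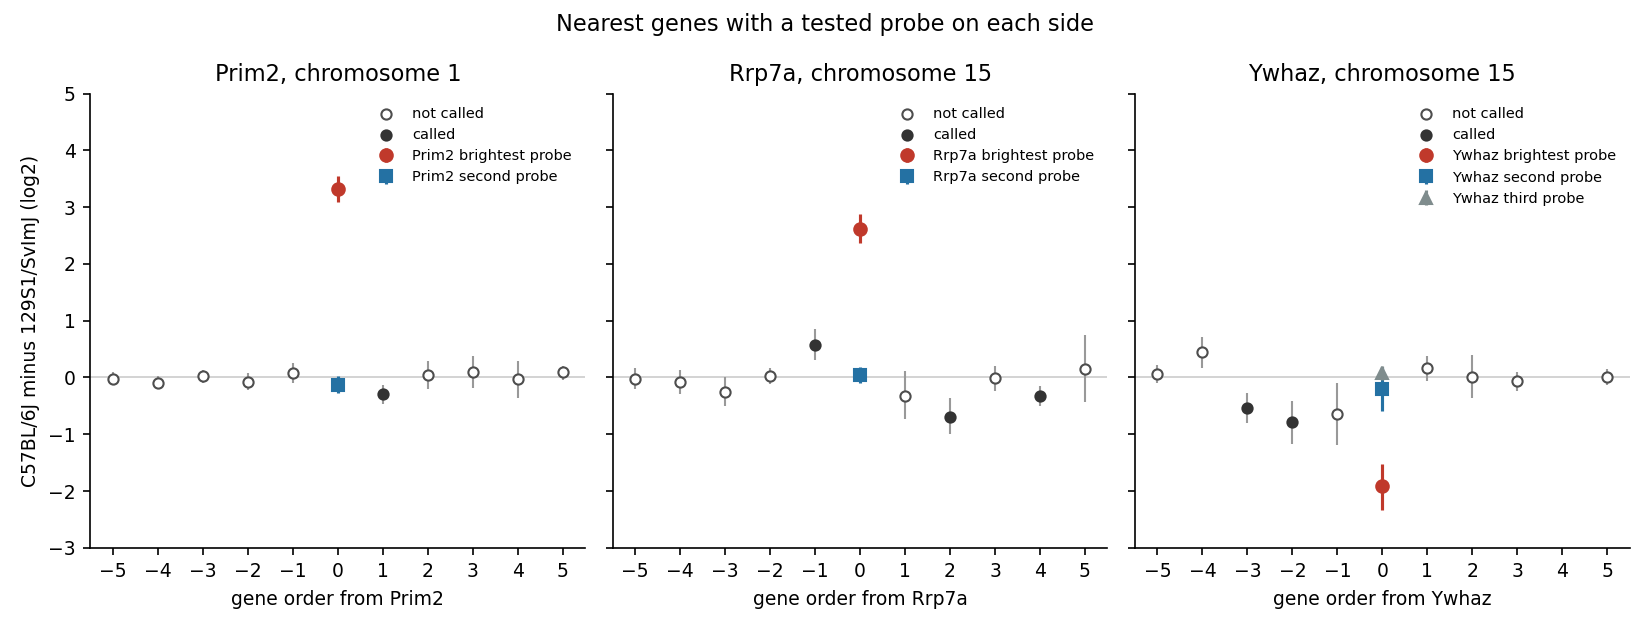
Strain difference (y axis, log2, C57BL/6J minus 129S1/SvImJ) of up to 5 nearest genes with a tested probe on each side of Prim2, Rrp7a and Ywhaz, by gene order (x axis). Bars are 95% intervals, filled circles genes with an adjusted p under 0.05, and coloured symbols the member's own probes. The brightest probes lie at 3.31, 2.62 and -1.92, outside the neighbours' range of -0.79 to 0.58.

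The probes of other genes with the ratios most like each member over the 20 arrays were themselves strain-dependent, so the likeness mainly restates the strains and is given as a description. For Prim2 they were Ptprg (r = 0.990), Usp53 (0.985), Zbtb8os (0.985), Slx1b (0.983) and Pold3 (0.982). For Rrp7a they were Pold3 (0.978), Zbtb8os (0.975), Ptprg (0.975), Zfp945 (0.972) and Rabl2 (0.966). For Ywhaz they were Btbd9 (0.950), Tescl (0.931), Cbr1 (0.925), Ndufa11 (0.924) and Tmem242 (0.921). Pold3 belongs to the replication fork list as well, and its 3 probes disagreed in direction: the probe meant here differed by 2.01 ± 0.08 between the strains, another by -1.35, both called, and the brightest probe that stood for it in that list by 0.36 ± 0.14 (adjusted p = 0.20).

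Within the 10 hybrid arrays alone, where the strain difference plays no part, other probes came first. For Prim2 these were probes of Med1 (r = 0.954), Ghr (0.946), Haus6 (0.923), Rnf139 (0.923) and Nsl1 (0.923), for Rrp7a of Il10ra (0.923), Slc41a1 (0.910), Cgnl1 (0.908) and Clba1 (0.906), and for Ywhaz of Tmem144 (0.942), Cngb3 (0.891), Adamts8 (0.877), Selenov (0.871) and Ptk2 (0.870). None of these was among the most alike over all 20 arrays, and with 10 arrays and 35040 probes, values of this size describe these arrays only.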

How the data were processed

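Labelled RNA of 20 single pairs of XY gonads (Cy5) and of 1 reference pool (Cy3) was hybridised to 20 Agilent arrays with 2 colours. The authors deposited scanner output with the intensity of 45018 spots per channel, made with Agilent Feature Extraction 9.1.3.1 per the file headers. The processed intensity columns carry that software's background subtraction, spatial detrending and dye normalisation, per the file headers. A value table of log2 ratios was also deposited by the authors. It correlated with the ratios used here at r = 0.818 to 0.873 per array over probes, and served as an alternative only.

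Mean signals minus the median local background were corrected with normexp (offset 50), normalised by loess within each array and averaged per probe in limma 3.58.1 (R 4.3.3, package data.table in version 1.17.8). Control spots had weight 0, and spots flagged as outliers were left out. Spots with a net signal below 0 in either channel were left out before normexp, a step added after the data were seen because the fit failed on 2 arrays. Fitted on all spots, the background of array A4 had a mean of -214.3 (SD 255) in Cy5, against 9.6 (SD 2.23) without its 8 such spots. A linear model with 4 groups was fitted, with eBayes, to the 35040 probes that 4 or more arrays of some group showed well above background in Cy5 (16 residual and 2.63 prior degrees of freedom). In each comparison p was adjusted by Benjamini-Hochberg over these probes, and "called" means that the adjusted p was below 0.05. The number of arrays limits the precision. The median SE was 0.11 for a strain difference and 0.0779 for hybrid minus mid-parent. The fit was tested on simulated data with known changes.

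Probes were named by accession (22951), current symbol (6659), synonym (3109) or the name in the file (8455), with the gene table of assembly GRCm38.p6, which also gave gene order. Each distinct name was counted as a gene, also where only the name in the file was at hand. Rrp7a is listed under an older name, 1110014J01Rik. The brightest probe on average stood for a gene among the partners and neighbours. Named genes were all probes of the 3 genes, the 4 partners per list with the smallest p plus the closest complex members and all 14-3-3 genes, the neighbours, the 5 most alike probes of named genes per member, and the 5 largest differences in each direction among genes with the same pattern. Among these, 1 neighbour and 1 alike probe are not reported here. The genes, lists and tests were chosen with earlier results of these data known. P-values measure the spread between gonad pairs, 1 pair per array, per the labels. Alternatives were an offset of 16, the processed signals, signals without background subtraction, the value table, no filter, slide or the letter of the sample name as a block, only the arrays compared, and leaving out each array. The part of slide 5, which held hybrid arrays only, was covered by the slide block.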

Additional observations from a re-analysis of the deposited data

Results flagged for a closer look

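In 3 of the 28 sets of 5 arrays (7 probes in 4 groups), a single array lay far from the other 4 by Dixon's criterion at the 95% level, which chance meets in about 1 of 20 sets. On the brightest Prim2 probe the C57BL/6J array K2 had a log2 ratio of 0.17, and the others of its group -0.21 to -0.17. On the second Ywhaz probe the 129S1/SvImJ array G3 had 0.72, and the others -0.09 to 0.10. On the third Ywhaz probe, which is dim, the 129S1/SvImJ array D4 had -0.14, and the others 0.05 to 0.11. K2 is the only C57BL/6J array whose sample name carries another letter than H. Without K2 the strain difference of the brightest Prim2 probe was 3.24 in place of 3.31.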

How the results depend on the processing

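No difference that was called changed its sign in any alternative, nor did the strain difference of a brightest probe of the 3 genes, while uncalled values near 0 did, such as the second Rrp7a probe (-0.02 to 0.09 without single arrays), the hybrid over the linear mid-parent of Ywhaz and the strain differences of Pola1 and Grhl2. Over the settings that keep all arrays, 182 of 217 results about the 3 genes, their lists and the counts were the same, 31 moved and 4 lost a call, and leaving out single arrays moved 24 of 520. The brightest Prim2 probe differed between the strains by 3.63 with an offset of 16, 1.98 without background subtraction, 3.93 in the processed signals, 4.00 in the deposited table and 3.06 with normexp on all spots, a setting chosen after seeing the data. The brightest Rrp7a probe differed by 1.97 without background subtraction and 2.81 in the deposited table, and the second Prim2 probe by -0.34 in the processed signals and -0.31 in the deposited table. Hybrid minus mid-parent lost its call for Prim2 with normexp on all spots (0.73) and for Rrp7a without background subtraction (0.29), with normexp on all spots (0.44) and with slide as a block (0.40). By this comparison 69 probes were called, against 21 without background subtraction, 21 with slide as a block and 45 with the name letter as a random block (correlation 0.132). Between the reciprocal crosses 2 probes were called, against 0 with normexp on all spots, 1 with the letter block, 1 with only the arrays compared and 1 to 2 without single arrays, the 1 being without C2, C4, E1, L1, L2, L4, M3 or M6. The count of genes with the pattern was 44, against 19 without background subtraction, 53 with an offset of 16, 63 in the processed signals and 66 in the deposited table. Called replication fork genes numbered 2, against 4 without background subtraction and with slide as a block, and 1 in the processed signals and with only the arrays compared. Called processome genes numbered 2, against 1 without background subtraction, in the processed signals, in the deposited table, with the letter block and with only the arrays compared, and 1 to 2 without single arrays (1 without C3, E1, F2, L2, H2, H3, K2, A3, A6 or D4). Called neighbours of Prim2 numbered 1, against 0 without background subtraction, with normexp on all spots, with the letter block and with only the arrays compared, and 0 to 1 without single arrays (0 without H2, H3, K2, A4, A6 or D4). With only the arrays compared, 1 neighbour each of Rrp7a and Ywhaz was called, against 3 and 2. Hybrid minus mid-parent was not refitted on only the arrays compared, since it uses all 20. No paired analysis was possible because the replicate names are not shared between groups, and the slide, which held both strains in 4 of 5 cases, served as a block instead. The cause of these changes was not tested, apart from the added constant, which by construction holds dim probes near 0. Dim probes limit what can be said of the second Prim2 and the third Ywhaz probe.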
